A study of Ictidomys tridecemlineatus with 31 samples.

Results

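The kidney's proximal tubule reclaims proteins that pass the glomerular filter, and 8 genes of this uptake pathway were followed through the hibernation year of the 13-lined ground squirrel, a small mammal that alternates between cold torpor and rewarming each winter. The 8 genes are Lrp2, Cubn, Amn, Dab2, Lrpap1, Clcn5, Ocrl, and Rab11a, a list of named receptors and their partners. All 8 were found among the 12863 genes of the table, each in a single row (gene47, gene9157, gene23484, gene8955, gene2975, gene21121, gene3270, and gene965 in the same order). Each symbol also matched a protein-coding gene of the RefSeq annotation. That annotation belongs to an assembly other than the authors' HiC_Itri_2, so no positions are given.

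RNA was measured in bulk kidney tissue of 31 captive animals in 6 states, all from animals with implanted temperature recorders and perfused before the kidneys were frozen. Summer active (SA, 5 animals) squirrels were fattening and warm, and spring dark (SpD, 5) squirrels were warm again after their last torpor but still in the dark hibernaculum. The other 4 states belong to the heterothermic season, namely interbout aroused (IBA, 5), when the animals are briefly warm between torpor bouts, entrance into torpor (Ent, 5), when they cool, and early arousing (EAr, 5) and late arousing (LAr, 6), when they rewarm. No genotype or drug differed between the states, ages are not part of the labels, and the 31 animals were 17 females and 14 males. Experiment 1 held 9 animals (3 each of IBA, Ent, and SpD) and experiment 2 the other 22, with a different library kit and sequencer, so SA, EAr, and LAr came from experiment 2 alone.

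Values are regularized log (rlog) values, counts normalized for library size on the log2 scale, from which the authors had removed the mean difference between the experiments. They are not scaled by gene length, so levels are compared between states for a gene and never between genes. The depth of each library is unknown from these values, and precision is given by the spread between animals. Unless said otherwise, results are for the 29 animals left without K113 (LAr) and K137 (SA), which the study's own tests of differential expression also leave out, so that SA has 4 and LAr 5 animals. The comparisons were repeated with all 31 and with the 28 animals that remain when the SpD animal K130 is left out too.

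Lrp2 encodes megalin and Cubn encodes cubilin, the large receptors that bind filtered albumin, hormones, and carrier proteins at the brush border. Cubilin has no membrane-spanning part and reaches the surface only together with amnionless, the product of Amn, while Dab2 is the adaptor that links megalin to the clathrin coat and Lrpap1 the chaperone that accompanies megalin through the endoplasmic reticulum. The chloride/proton exchanger of Clcn5 and the lipid phosphatase of Ocrl serve the endosomes, and loss of either causes a wasting of proteins into the urine in humans. Rab11a returns receptors from endosomes to the membrane and works in nearly all cells.

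At the study's q threshold, but with a different test, none of the 8 genes was called differentially expressed (DE) in any comparison of states. The study applied that threshold to a test on counts, which called a larger share of all genes across states. The 0 calls here therefore do not show what that test gave for the 8 genes. A gene was called at q under 0.001, with q the Benjamini-Hochberg adjusted p over all 12863 genes from limma, a linear model across all genes, with state, sex, and experiment as terms. In the F test across the 6 states, 0 of 8 members and 9.34% of all genes were called. The 0 calls also held for the 7 pairs of states and for the 4 hibernation states against SA and SpD, in which 9.73% of all genes were called. Over the pairs, written as first state over second, the share of all genes called was 3.15% in IBA/SA, 0.746% in Ent/IBA, 0.132% in EAr/Ent, and 0.295% in LAr/EAr. It was 1.43% in IBA/LAr, 1.25% in SpD/IBA, and 0.0544% in SA/SpD. In bulk tissue, a sample with fewer proximal tubule cells and one with less RNA of these genes per cell cannot be told apart.

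At the laxer q under 0.05, 1 of 8 members passed across states, where 46.1% of all genes passed. The member was Dab2 (F = 3.26, q = 0.0477). A single member passed in each of 3 further comparisons, Cubn in IBA/SA (22.9% of all genes passed), Dab2 in SA/SpD (10.5%), and Amn between hibernation and the active states (33.4%). The number of members with an unadjusted p under 0.05 across states was 1, again Dab2. For the other members, q across states was 0.238 (Lrp2), 0.0913 (Cubn), 0.0945 (Amn), 0.0987 (Lrpap1), 0.192 (Clcn5), 0.243 (Ocrl), and 0.243 (Rab11a).

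Without K130, members other than Dab2 passed q under 0.05 across states. These were Cubn (q = 0.0373) and Lrpap1 (q = 0.0135), each in limma's F test on 28 animals, in which 42.2% of all genes passed. With all 31 animals, the lowest q of a member across states was 0.173 (Amn, limma's F test), and that of Dab2 was 0.248. Which members passed thus depended on K130 and on leaving out K113 and K137.

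**Figure D1:**
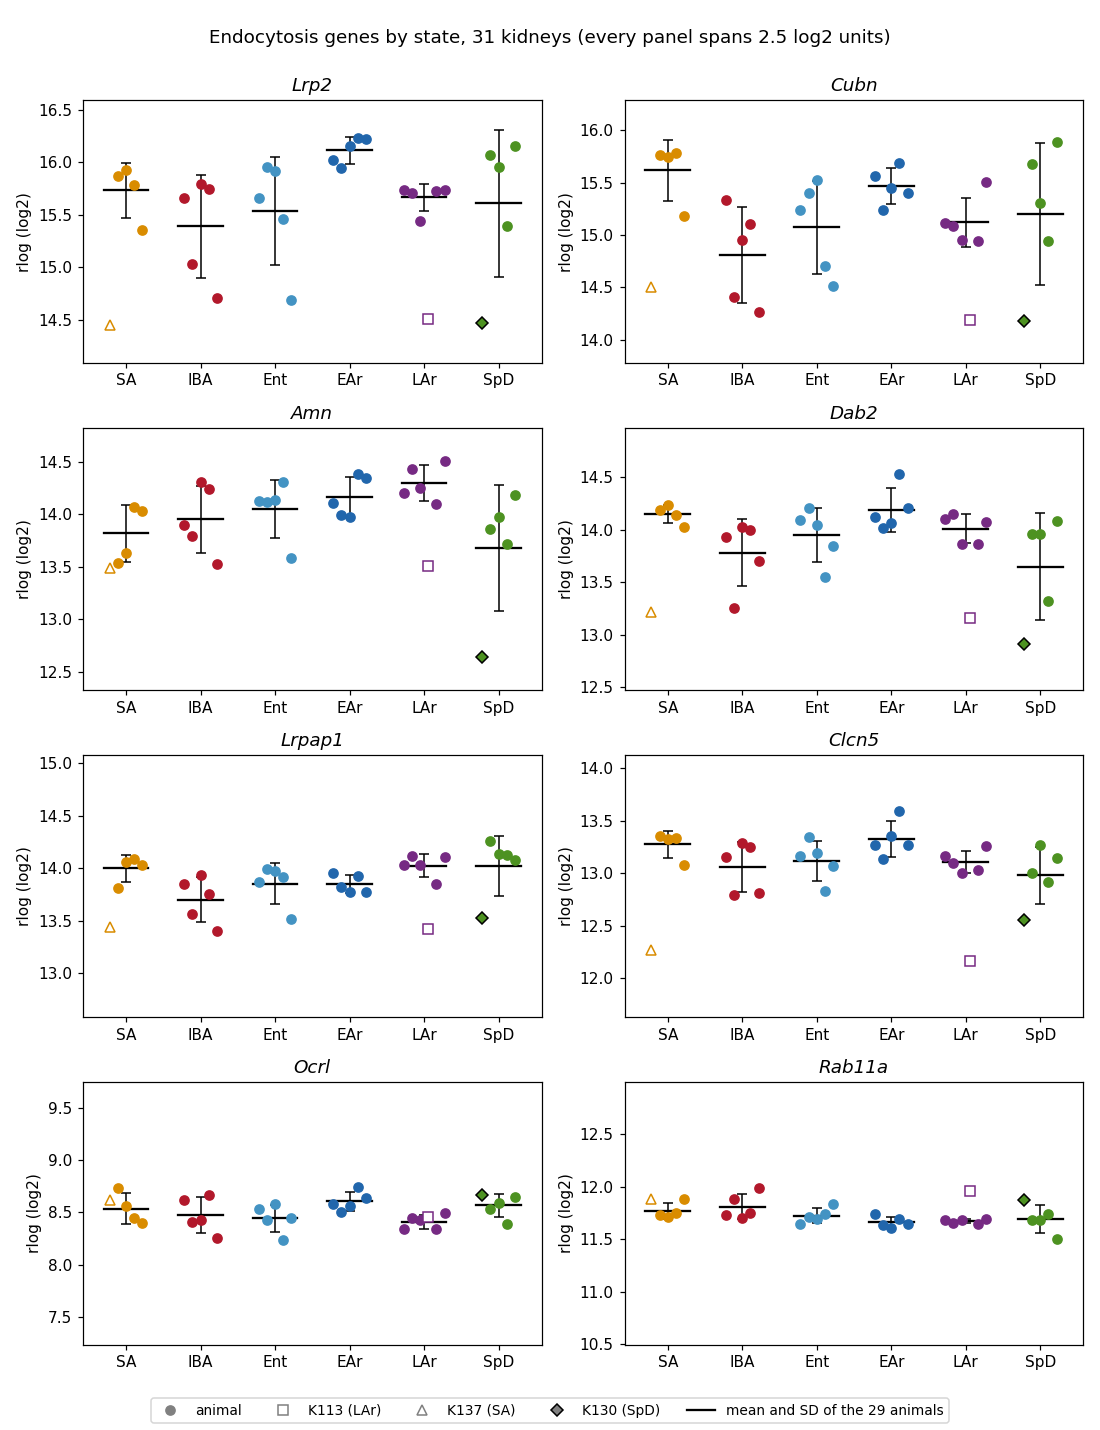
Level of each gene (rlog, log2 scale) in every kidney by state, in panels that each span the same range of the scale, with the mean and SD of the 29 animals as lines. K113, K137, and K130 sit at the bottom of their states for Lrp2, Cubn, Amn, Dab2, Lrpap1, and Clcn5, and at or near the top for Rab11a.

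Lrp2, the megalin gene, had its highest state mean in EAr and its lowest in IBA. The 5 EAr animals read 16.02, 15.94, 16.15, 16.23, and 16.23, and the 5 IBA animals 15.66 (K1), 15.03 (K104), 15.79 (K171), 15.75 (K4), and 14.71 (K7). The Ent animals read 15.66, 15.96, 15.92, 15.46, and 14.69, the lowest being K8. EAr was thus tight (SD 0.13) whereas IBA and Ent each held animals about a log2 unit apart.

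In SA, Lrp2 read 15.87, 15.93, 15.78, and 15.35 in the 4 animals used and 14.45 in K137. The LAr animals ranged from 15.44 to 15.74 around a median of 15.72, with K113 at 14.51. The SpD animals read 16.07, 15.95, 15.40, 16.15, and, in K130, 14.47. The lowest value of 3 states was therefore that of K137, K113, or K130, and these differ by less than 0.1 from each other.

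The means ran EAr 16.11 ± 0.13 (SD, n = 5), SA 15.73 ± 0.26 (n = 4), LAr 15.67 ± 0.13 (n = 5), SpD 15.61 ± 0.70 (n = 5), Ent 15.54 ± 0.52 (n = 5), and IBA 15.39 ± 0.49 (n = 5). Only the step from EAr down to SA exceeded the larger SD of the neighbours in this order. With the model, Lrp2 was 0.69 higher in EAr than in Ent on the log2 scale (95% interval 0.07 to 1.31, limma q = 0.647), and 0.48 without K130 (interval -0.02 to 0.98). In LAr/EAr it was lower by 0.44 (difference -0.44, interval -0.99 to 0.12, q = 0.727). The LAr and EAr animals did not overlap, which also held for 6.84% of all genes in this pair. Hibernation against active states gave 0.01 in Lrp2 (interval -0.34 to 0.36), -0.16 without K130, and 0.43 within experiment 2 (q = 0.0282, with 39.0% of all genes under 0.05), so its sign depended on the animals used. With single animals left out in turn, the sign changed in 9 of 29 fits. SpD/IBA of Lrp2 was likewise 0.22 with K130 and 0.55 without it.

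Cubn, the cubilin gene, was highest in SA and lowest in IBA. The SA animals read 15.77, 15.74, 15.78, and 15.18, with K137 at 14.50. The IBA animals read 15.33 (K1), 14.41 (K104), 14.95 (K171), 15.11 (K4), and 14.27 (K7), so K1 lay above the lowest SA animal and the groups overlapped.

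The means of Cubn were 15.62 in SA and 14.81 in IBA. The model also adjusts for sex and experiment, and its experiment term for Cubn was -0.28 (experiment 2 minus experiment 1, limma q = 0.874). The difference IBA/SA of Cubn from this model was -0.96 (SE 0.29, interval -1.57 to -0.36, limma q = 0.0213). It was -0.75 with all 31 animals (q = 0.14) and -0.80 in the 28 (q = 0.0233, where 21.8% of all genes passed 0.05). Leaving out single animals moved it between -1.11 and -0.80 and its q between 0.00996 and 0.0745, and the call at 0.05 was lost without K104 (q = 0.0745) or K139 (q = 0.0571). Within experiment 2 it was -0.90 (q = 0.0164, with 19.5% of all genes under 0.05), from 4 SA and 2 IBA animals.

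The remaining states of Cubn lay between those ends. Ent read 15.24, 15.41, 15.52, 14.70, and 14.52, EAr between 15.24 and 15.69, and LAr between 14.94 and 15.51, with K113 at 14.19. SpD read 15.68, 15.31, 14.94, 15.89, and, in K130, 14.18, which is close to K113. Without K130, Cubn was 0.67 higher in SpD than in IBA at q = 0.0431 (limma, 28 animals), and 0.43 lower in hibernation than in the active states (difference -0.43, q = 0.0174). In these 28-animal fits 14.0% and 32.9% of all genes passed 0.05. With K130 the values were 0.38 (q = 0.344) and -0.29 (q = 0.166). Hibernation against active gave -0.22 in all 31 animals (q = 0.359). Its sign turned in 1 of 12 alternative fits with other animals or models, where it was 0.07.

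Amn, whose product carries cubilin to the membrane, had another order of states, with LAr highest and SpD lowest. The LAr animals read 14.21, 14.43, 14.25, 14.10, and 14.51, with K113 at 13.51. The SpD animals read 13.86, 13.98, 13.72, 14.18, and 12.64, the last being K130, the lowest value of Amn in the table. SA read 13.54, 13.64, 14.07, and 14.03, and 13.49 in K137.

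Among the other states, Amn ranged from 13.53 to 14.30 in IBA, from 13.58 to 14.31 in Ent, and from 13.97 to 14.38 in EAr. No pair of states passed q under 0.05. Hibernation against active gave 0.37 (SE 0.13, interval 0.10 to 0.64, limma q = 0.0343) in 29 animals, with means of 14.12 ± 0.26 (SD, n = 20) and 13.74 ± 0.46 (n = 9). It was 0.38 in 31 animals (q = 0.038, with 28.8% of all genes under 0.05) and 0.23 in the 28 without K130 (q = 0.0867). Leaving out K138 or K139, the lowest SA animals of the 29 for Amn, also took q above 0.05 (0.0896 and 0.0833). Within experiment 2, where SpD is K84 and K130 alone, it was 0.65 (q = 0.00292), in the fit in which 39.0% of all genes passed 0.05.

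Dab2, the clathrin adaptor of megalin, read 14.19, 14.24, 14.14, and 14.03 in SA and 13.21 in K137. IBA ran from 13.25 (K104) to 14.02 (K171) with a median of 13.93, so that without K137 all SA animals lay above all IBA animals. This separation in IBA/SA was shared by 18.8% of all genes. The difference was -0.52 (interval -0.94 to -0.10, limma q = 0.0677).

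In SpD, Dab2 read 13.96, 13.96, 13.32 (K84), 14.09, and 12.91 (K130). SA/SpD was 0.65 (interval 0.23 to 1.07, limma q = 0.0429), with overlapping animals (9.37% of all genes did not overlap in this pair). It was 0.47 in all 31 animals (q = 0.311) and 0.35 without K130 (q = 0.319). Within experiment 2, against K84 and K130 alone, it was 1.03 (q = 0.00218, with 26.4% of all genes under 0.05). With each of the 29 animals left out in turn, q passed 0.05 in 10 cases, highest without K130, and otherwise between 0.0503 and 0.0982 (K104, K138, K139, K140, K141, K157, K165, K4, and K84). Ent lay between 13.55 and 14.21, EAr between 14.02 and 14.53, and LAr between 13.86 and 14.15.

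Lrpap1, the chaperone gene of megalin, moved over a narrower range. Its state means ran from 14.03 ± 0.11 (SD, n = 5) in LAr and 14.03 ± 0.29 (n = 5) in SpD to 13.70 ± 0.22 (n = 5) in IBA. The SpD animals other than K130 read 14.26, 14.13, 14.13, and 14.08, above all IBA animals (13.85, 13.56, 13.93, 13.75, and 13.40), and K130 read 13.53. Without K130, 11.4% of all genes were free of overlap in this pair. SpD/IBA was 0.33 (interval 0.09 to 0.56, limma q = 0.064) with K130 and 0.45 (interval 0.24 to 0.66, q = 0.00476, with 14.0% of all genes under 0.05) without it. Of the members' differences in the 3 sets of animals, the latter had the lowest q. Without K130, Lrpap1 was also lower in hibernation than in the active states (difference -0.22, q = 0.0107, with 32.9% of all genes under 0.05), against -0.15 (q = 0.107) with it. This difference was -0.12 in all 31 animals (q = 0.338), and it shrank to -0.04 in 1 of the alternative fits with other animals or models.

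Clcn5, the endosomal chloride/proton exchanger, read between 13.14 and 13.59 in EAr and between 12.56 (K130) and 13.27 in SpD. The difference SA/SpD was 0.33 (interval 0.03 to 0.63, limma q = 0.13). It was 0.12 without K130 (interval -0.16 to 0.41, q = 0.649) and 0.14 in all 31 animals (q = 0.783). K137 and K113 had the lowest values of all, 12.27 and 12.16. Ocrl, the endosomal lipid phosphatase, had state means between 8.41 (LAr) and 8.61 (EAr). Every EAr animal of Ocrl (8.51 to 8.74) lay above every LAr animal (8.34 to 8.49), in a pair in which 6.84% of all genes did not overlap. LAr/EAr of Ocrl was -0.18 (interval -0.35 to -0.02, limma q = 0.542), and -0.19 without K130.

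Rab11a, the recycling GTPase, varied least. Its residual SD in the model was 0.0922, higher than that of only 9.74% of all genes, and its state means lay between 11.66 (EAr) and 11.81 (IBA). Without K113, which read 11.96 in LAr, all IBA animals (11.71 to 11.99) lay above all LAr animals (11.64 to 11.69). Between these states, 13.7% of all genes were free of overlap in one direction or the other. The difference IBA/LAr was 0.15 (interval 0.01 to 0.30, limma q = 0.124), and 0.13 without K130 (interval -0.01 to 0.26). In all 31 animals it was 0.11 (q = 0.405). In Ent/IBA, EAr/Ent, SpD/IBA, and SA/SpD, no member was without overlap between the states, against 7.74%, 1.20%, 6.51%, and 9.37% of all genes.

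The receptors were among the genes that differed most between animals of the same state. Lrp2 had a residual SD of 0.444 and Cubn of 0.416, against a median of 0.155 over all genes, higher than 95.7% and 95% of them. Amn had 0.346, Dab2 0.286, Clcn5 0.199, Lrpap1 0.184, and Ocrl 0.120. The intervals are accordingly wide, and a fall of Lrp2 from SA to IBA by as much as 1.11 lies within them. Of 40 neighbouring states in the orders of the 8 genes, 2 were apart by more than the larger SD of the neighbours, EAr and SA for Lrp2 and SA and LAr for Dab2.

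**Figure D2:**
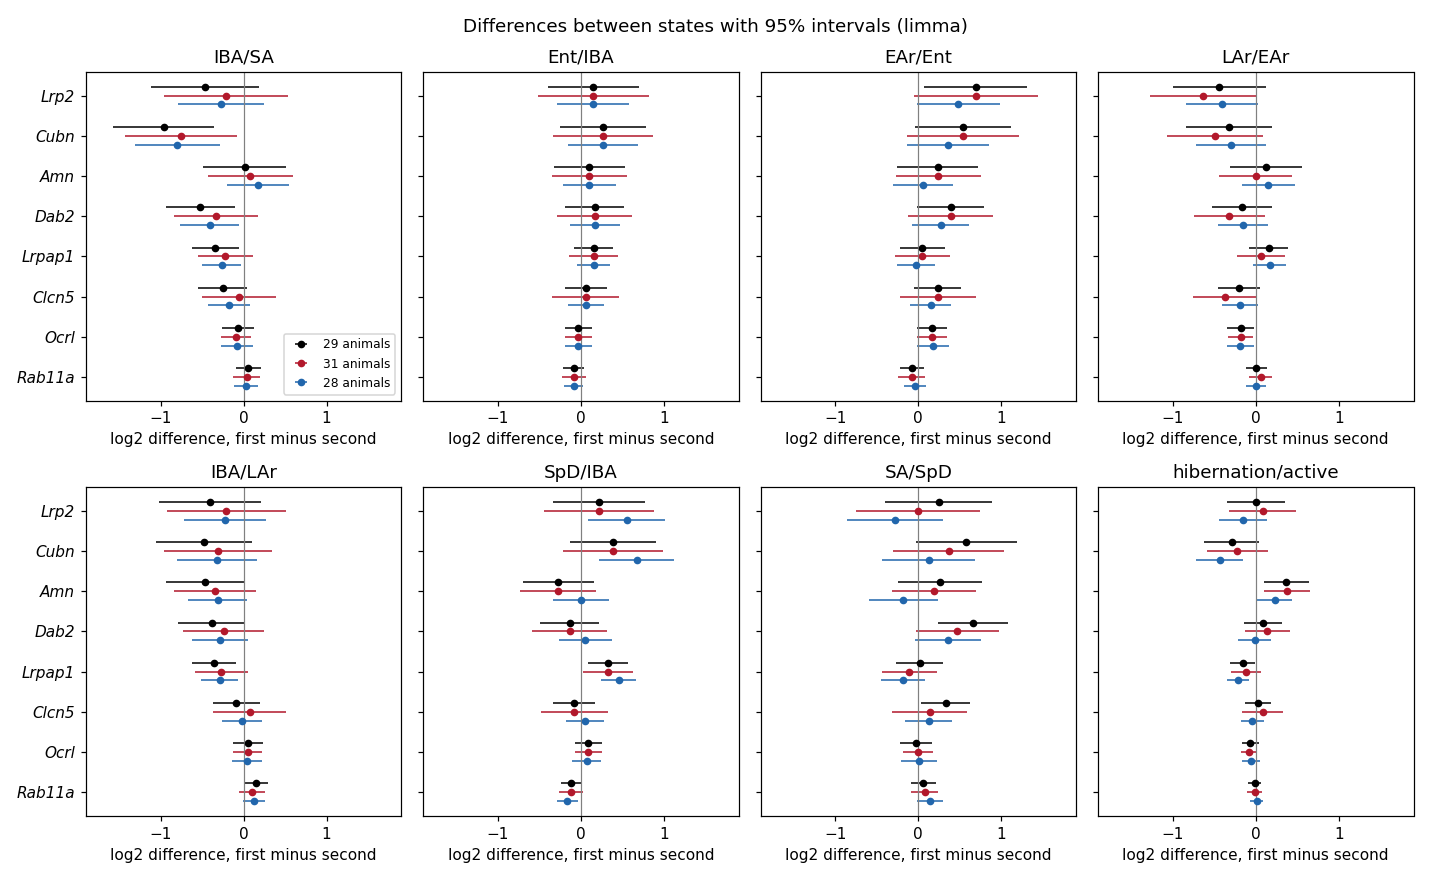
Log2 difference of each gene (first state minus second, horizontal axis) with its 95% interval from limma in 29, 31, and 28 animals, in 7 pairs of states and for hibernation against the active states. Most intervals cross 0, those of Lrp2 and Cubn are the widest, and the estimate of Dab2 in SA/SpD moves from 0.65 in 29 to 0.35 in 28 animals.

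No member passed a test between the sexes. In male/female, 0 of 8 were called (0.0233% of all genes were) and none had an unadjusted p under 0.05 in limma. The difference between males and females in the effect of hibernation had q = 0.994 for each member. Within the experiments, SpD/IBA of Lrp2 was 0.69 in experiment 1 (3 against 3 animals) and -0.48 in experiment 2 (2 against 2, with K130 as an SpD animal). For Cubn the same values were 0.72 and -0.12, and for Lrpap1 0.49 and 0.08, and the sign turned between the experiments in 6 of the 8 members, all but Lrpap1 and Ocrl. Comparisons with SA, EAr, or LAr cannot be made within experiment 1.

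K113, K137, and K130 differed from the rest of their states in the same members. Lrp2 differed from the mean of the others of the state by -1.16 in K113, -1.29 in K137, and -1.43 in K130. The differences for Cubn were -0.93, -1.12, and -1.27, for Dab2 -0.85, -0.94, and -0.92, and for Lrpap1 -0.60, -0.56, and -0.62. Those for Amn were -0.79, -0.33, and -1.29 and those for Clcn5 -0.95, -1.01, and -0.53. In all 3 animals, these 6 genes lay below the lowest of the other animals of the state. In Rab11a the sign was the opposite, with differences of 0.29, 0.11, and 0.22.

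Few of all genes were lower than Lrp2 in K113, K137, and K130. For Lrp2, 0.894% (K113), 0.505% (K137), and 1.13% (K130) of all genes had a lower difference, whereas for Lrpap1 it was 8.22%, 7.8%, and 7.52%. Of 10 other proximal tubule genes, such as the glucose transporter Slc5a2, the phosphate transporter Slc34a1, and the organic anion transporter Slc22a6, 10 lay below all other animals of the state in K113, 10 in K137, and 9 in K130. Their mean was -0.96, -1.01, and -1.69 from that of the others. Slc14a2, the urea transporter of the inner medulla, was higher by 6.34, 4.74, and 3.21. The mean of 5 tubule injury genes (Havcr1, Spp1, Clu, Lcn2, and Vcam1) was above all other animals of the state in the 3 animals, by 1.17, 0.50, and 0.63 from their mean, and so was that of the principal cell genes Aqp2 and Hsd11b2. The distal tubule gene Slc12a3 was below in all 3. In K113 and K137 the intercalated cell genes Atp6v1g3 and Atp6v0d2 were below (mean -0.66 and -1.005) and the fibroblast genes Plac8 and S100a4 above (mean 1.61 and 0.97). The part of these genes in the low members was not tested.

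The 10 proximal tubule genes also varied among the other animals. Their mean was 14.44 ± 0.14 (SD, n = 4) in SA, 13.64 ± 0.38 (n = 5) in IBA, 13.91 ± 0.34 (n = 5) in Ent, 14.12 ± 0.19 (n = 5) in EAr, 14.06 ± 0.13 (n = 5) in LAr, and 13.88 ± 0.82 (n = 5) in SpD. In no pair of states was any of the 10 called at q under 0.001. In IBA/SA, 6 of 10 passed q under 0.05 (22.9% of all genes did), and their median difference was -0.75. That is the pair in which Cubn passed the same threshold. In SA/SpD, where Dab2 did, the median difference was 0.79 and 2 of 10 passed (10.5% of all genes). Between hibernation and the active states, where Amn was higher, the median difference was -0.03 and 3 of 10 passed (33.4% of all genes). These were Slc34a1 (-0.85), Slc5a2 (-1.08), and Slc6a19 (-0.74), all lower in hibernation. The part of the 10 genes in the differences of Cubn, Dab2, and Amn was not tested.

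Pearson's r with the mean of the 10 genes over the 29 animals was 0.89 for Cubn, 0.845 for Dab2, 0.812 for Lrp2, 0.772 for Clcn5, 0.759 for Lrpap1, 0.617 for Amn, 0.202 for Ocrl, and -0.568 for Rab11a. Without K130, it fell to 0.318 for Amn and to 0.736 for Lrp2 and stayed at 0.884 for Cubn, while that of Ocrl was 0.464. With the state means taken off, so that only animals of the same state are compared, it was 0.848 for Amn, 0.878 for Cubn, and 0.884 for Lrp2. Without K130, these were 0.675, 0.833, and 0.814. These r values are descriptions, since both values come from the same library and piece of tissue. Slc14a2 ran from 6.31 to 6.91 in the 5 LAr animals and from 6.11 to 10.4 in EAr, and its r was -0.673 with Amn, -0.623 with Dab2, and -0.349 with Lrp2 (-0.171 without K130).

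**Figure D3:**
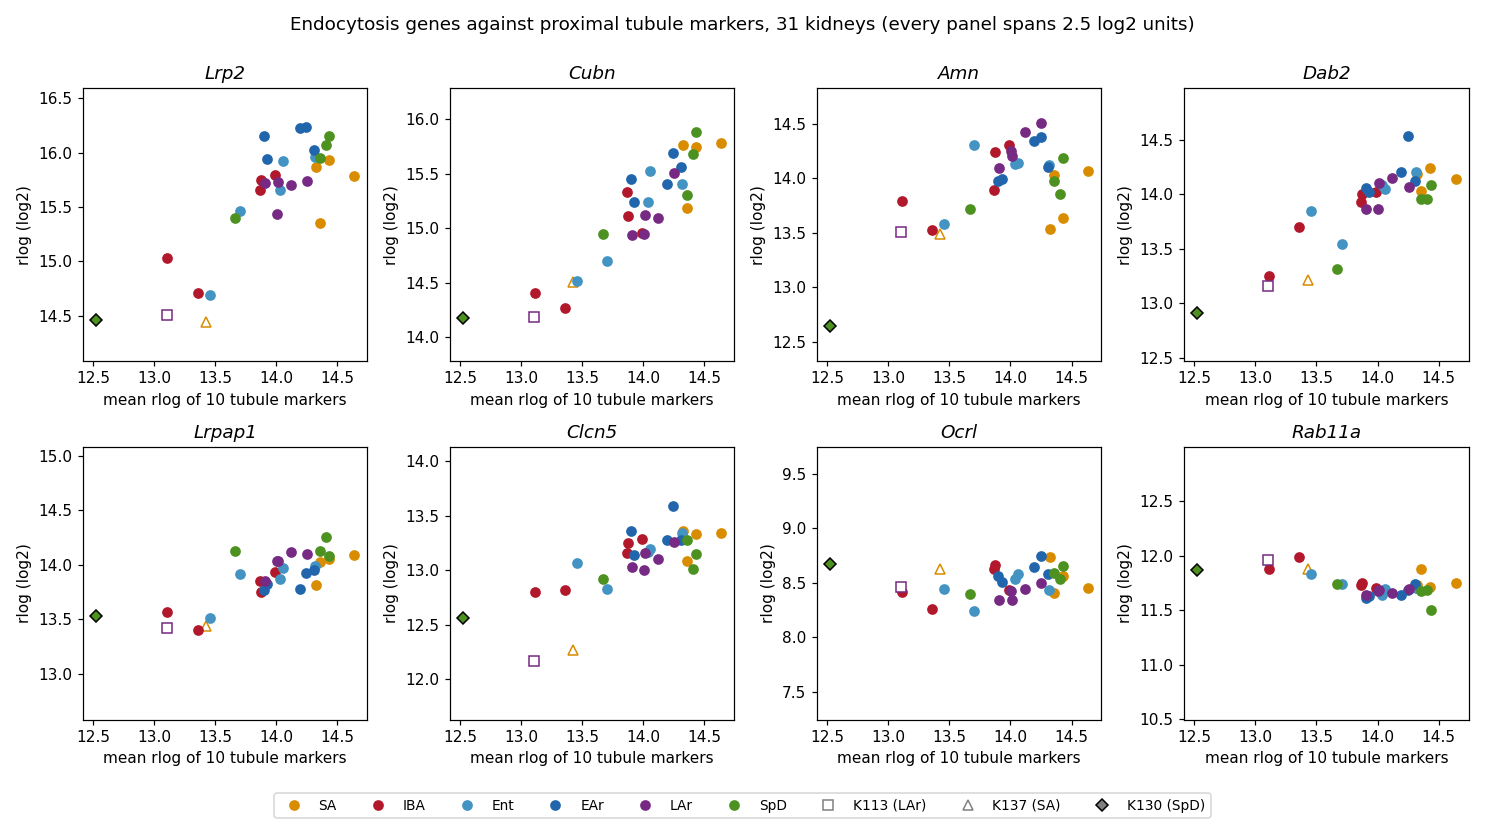
Level of each gene (rlog, vertical axis) against the mean rlog of 10 other proximal tubule genes (horizontal axis) in the 31 kidneys, coloured by state. Cubn and Dab2 follow the tubule genes over all states, Amn does so less in SA, with 2 animals to the right and low, and Rab11a runs the other way.

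Lrp2, Cubn, Amn, and Dab2 were compared in 6 pairs across the 29 animals. Lrp2 and Cubn had r = 0.874 and rho = 0.782 (permutation test, p = 1e-05 for each, the smallest that 100000 resamples can give, adjusted 2e-05 and 3e-05). Cubn and Dab2 had r = 0.779 and rho = 0.758, and Lrp2 and Dab2 r = 0.766 and rho = 0.683. After leaving out the 2 animals farthest from the median of the first gene, these were still 0.830, 0.721, and 0.719. Lrp2 and Cubn were also related within experiment 1 (r = 0.937, n = 9) and experiment 2 (r = 0.829, n = 20). The permutation tests ask only whether a pair is related at all, without other genes of the same libraries as background. Over the 29 animals, r with the mean of the other proximal tubule genes was 0.89 for Cubn and 0.812 for Lrp2. Lrp2 had a higher r with Itpr1 (0.922), Ptprf (0.899), and Copa (0.897) than with Cubn. Whether any of the 6 relations is particular to its pair was not tested.

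Amn was less tied to its partner. Cubn and Amn had r = 0.433 (permutation p = 0.0188, adjusted 0.0188) and rho = 0.158 (permutation p = 0.411). Without K130 and K7, the animals farthest from the median of Cubn, r was 0.0497, so the pooled relation rests on these animals. Within experiments it was 0.509 (n = 9, exact permutation p = 0.162) and 0.426 (n = 20, permutation p = 0.0653). With the state means taken off and animals permuted within states, r was 0.683 (adjusted permutation p = 0.00478), and 0.482 without K130 (adjusted 0.042). The remaining pairs, Lrp2 with Amn (r = 0.637, rho = 0.323) and Amn with Dab2 (r = 0.628, rho = 0.408), dropped to 0.355 and 0.315 without the 2 farthest animals.

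Amn and Cubn were also compared within each kidney. The difference of rlog values is a log2 ratio up to a constant for each gene, and the partner pairs were chosen after their values were seen, so they carry no test. How often other pairs of genes are free of overlap between these states was not counted. Amn minus Cubn was -2.23, -2.11, -1.71, and -1.15 in SA, and -1.82, -1.33, -1.22, -1.70, and, in K130, -1.54 in SpD. In IBA it was -1.43, -0.62, -0.65, -0.87, and -0.74, and in LAr it had a mean of -0.82 and was highest at -0.66, and all LAr animals lay above all animals of SA and SpD.

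The mean of Amn minus Cubn was -1.80 ± 0.49 (SD, n = 4) in SA, -1.52 ± 0.25 (n = 5) in SpD, -1.31 ± 0.17 (n = 5) in EAr, -1.02 ± 0.39 (n = 5) in Ent, -0.86 ± 0.33 (n = 5) in IBA, and -0.82 ± 0.14 (n = 5) in LAr. With state, sex, and experiment in a least-squares model, it was 0.66 higher in hibernation than in the active states (95% interval 0.40 to 0.92). In this model, 12 of the 28 pairs of members had an interval that excluded 0, and Amn minus Cubn was the largest in size. These pairs share genes and animals, and the share of other gene pairs with such an interval was not counted. The count is therefore a description and not a test. With K130 included, Amn rose against every other member with an interval above 0, by 0.52 against Lrpap1, 0.44 against Ocrl, and least against Dab2 (0.28). In these animals the rise of Amn was thus not limited to its difference from Cubn. K130 differed from the other SpD animals by -1.29 in Amn but by 0.13 in Ocrl. Without K130, the difference of Amn itself between hibernation and active states fell from 0.37 to 0.23. Of the pairs with Amn, only that with Cubn was refitted without K130, so whether the other rises hold was not tested. Amn minus Cubn was 0.60 higher in all 31 animals and 0.66 in the 28 without K130. K113 (-0.68) and K130 (-1.54) lay within the range of the other animals of their states, and K137 (-1.01) above that of SA.

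Lrp2 minus Cubn was lowest in SA, at 0.10, 0.19, 0.00, and 0.17 (K137 -0.06). In IBA it was 0.33, 0.62, 0.84, 0.64, and 0.44, without overlap with SA, and IBA/SA was 0.50 (interval 0.22 to 0.78). Lrp2 minus Lrpap1, receptor against chaperone, was highest in EAr, from 2.07 to 2.45 with a mean of 2.26 ± 0.16 (SD, n = 5), against means of 1.58 to 1.73 in the other states. EAr/Ent was 0.64 (interval 0.20 to 1.08) and LAr/EAr -0.59 (interval -0.99 to -0.20), and without K130 these were 0.51 and -0.57. Lrp2 minus Dab2 had its highest means in SpD (1.96 ± 0.23) and EAr (1.93 ± 0.15), with means of 1.58 to 1.66 in the others.

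**Figure D4:**
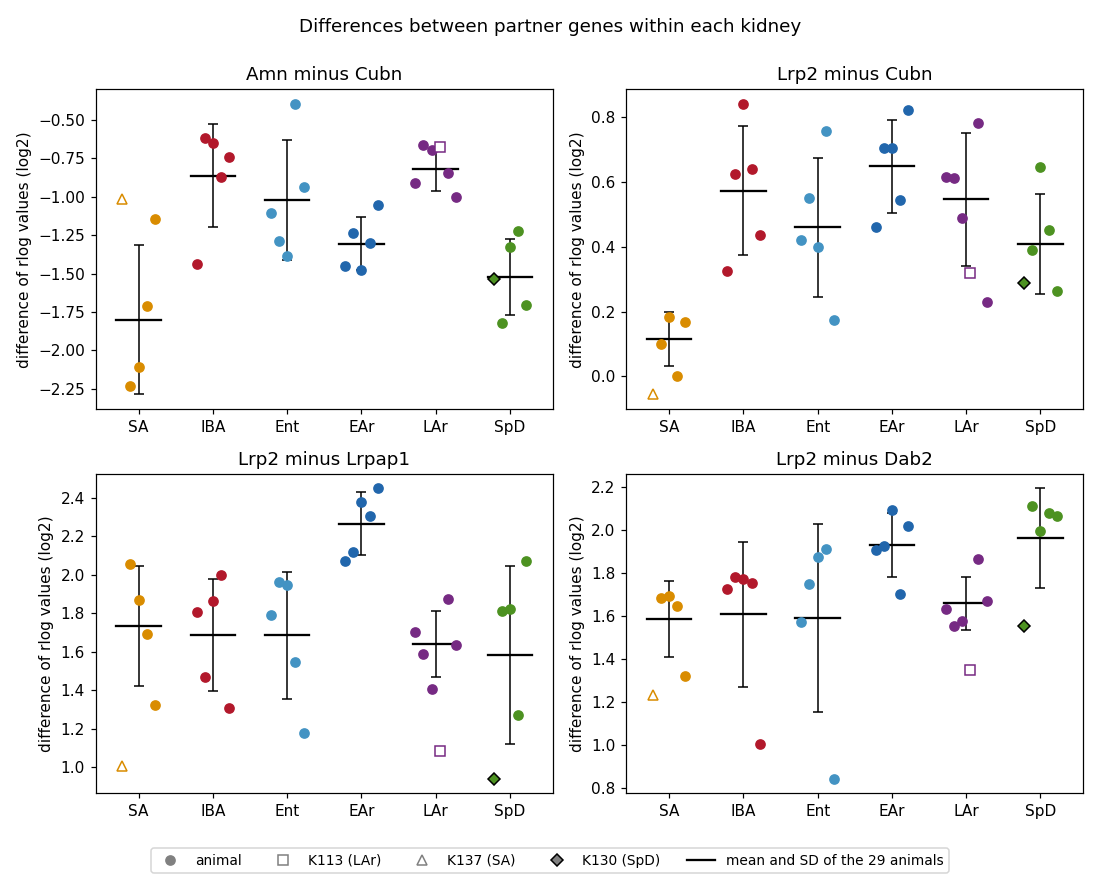
Difference of rlog values between partner genes within each kidney (vertical axis, log2) by state, with the mean and SD of the 29 animals. Amn minus Cubn is lowest in SA and SpD, Lrp2 minus Cubn is lowest in SA, Lrp2 minus Lrpap1 is highest in EAr, and K113 and K130 lie among the others for Amn minus Cubn but at the bottom for Lrp2 minus Lrpap1.

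The genes whose levels were most like those of a member over the 29 animals, by Pearson's r, were named 3 to a member. For Lrp2 they were Itpr1 (r = 0.922), Ptprf, and Copa, and for Cubn GOT2 (r = 0.915), Susd2, and Vwa8. Dab2 was most like Mme (r = 0.946), which encodes the brush border peptidase neprilysin, then Iqgap2 and Paqr9, and Clcn5 was likewise nearest to Mme (r = 0.870) and Paqr9, followed by Prkca. Amn was nearest to Pdk2 (r = 0.899), Slc25a10, and Prkcsh. Lrpap1 was nearest to Fah (r = 0.903), Slc5a11, and Anpep, and Ocrl to Herc1 (r = 0.839), Heatr5b, and PATJ. Rab11a was nearest to Cdc42 (r = 0.887), TMSB4X, and Calm2.

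Of 63 further genes of the route from coated pit to lysosome, 59 were measured, in 4 lists written from general knowledge. These were clathrin coat and adaptors (15 of 16 genes), endosome sorting and recycling (19 of 19), acidification of endosomes and lysosomes (15 of 16), and lysosomal processing (10 of 12). Across states 0 of 59 were called, and 23 passed q under 0.05, beside the 46.1% of all genes given above. In the 7 pairs of states 0 of 59 were called. Without K130, 2 were called across states and 1 in IBA/SA. Between hibernation and active states 3 of 59 were called, with 9.73% of all genes called, and the median difference of the 59 was 0.02. The count was 1 of 59 in all 31 animals and 4 of 59 without K130. For the counts in 31 and 28 animals the share of all genes called is not given, so they are not read against it.

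Of the called genes, Slc9a3 and Atp6v0d1 serve acidification. Slc9a3, the brush border sodium/proton exchanger that also acts in endosomes, had means of 11.65 ± 0.21 (SD, n = 4) in SA and 11.61 ± 0.28 (n = 5) in SpD against 10.93 ± 0.47 (n = 5) in Ent and 10.94 ± 0.41 (n = 5) in IBA. It fell in hibernation by 0.61 on the log2 scale (limma q = 0.000364), a call lost in all 31 animals (q = 0.00553). Atp6v0d1, a subunit of the vacuolar proton pump, rose by 0.28 (q = 0.000554), a call lost without K130 (q = 0.00137), from 11.92 ± 0.19 (n = 5) in SpD to 12.37 ± 0.13 (n = 5) in IBA as its lowest and highest means. At q under 0.05, with 33.4% of all genes, 0 of 15 clathrin coat, 4 of 19 sorting, 6 of 15 acidification, and 4 of 10 lysosomal genes passed between the seasons.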

How the data were processed

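Polyadenylated RNA of 31 kidneys was sequenced in 2 experiments. The authors trimmed reads (cutadapt), removed mitochondrial reads (HISAT2), quantified with Salmon on HiC_Itri_2, filtered genes, and deposited rlog values on the log2 scale (DESeq2), batch-corrected with limma. Counts were not used here. As the authors' count test needs counts, differences were estimated from the deposited table with limma 3.58.1 (R 4.3.3), with terms for state, sex, and experiment, variances moderated along expression level, and p adjusted over 12863 genes (Benjamini-Hochberg). Calls needed q under 0.001. The model was tested on simulated data. The degree of freedom spent on the batch correction is not counted. No 2 columns were identical (highest r 0.992). Correlations used 2-sided permutation tests (100000 resamples, exact for n = 9). Figures were drawn with matplotlib.

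Named genes are the 8 members, the 3 genes most like each, and called genes of the 4 lists. Members and lists were chosen with earlier results of these data known, and differences between partner genes after their values were seen. Alternatives were other sets of animals, models, filters, thresholds, and each animal left out. No gene sequence was used here, and some genes of the lists are not reported here.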

Additional observations from a re-analysis of the deposited data

Results flagged for a closer look

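Of 48 groups, each the values of a member in a state, 9 held an animal whose distance to its nearest neighbour took up more of the group's range than Dixon's critical value allows. Chance gives about 1 in 20 groups, and the 8 members share their animals. In LAr the animal was K113 for Lrp2 (a gap of 0.759 of the range), Dab2 (0.71), Clcn5 (0.767), and Rab11a (0.849), lowest for the first 3 of these genes and highest for Rab11a. In SA it was K137, lowest for Dab2 (0.798) and Clcn5 (0.746). In SpD it was K130, lowest for Lrpap1 (0.757). The Ent animal K8 was lowest for Amn (0.745) and Lrpap1 (0.744), and its Lrp2 value of 14.69 was also the lowest of Ent.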

How the results depend on the processing

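The count of 0 members at q under 0.001 held in all 418 combinations of an alternative setting with a comparison, over the 10 comparisons. These are not separate analyses, since the settings reuse the same animals and include each of the 29 left out in turn. At q under 0.05 the count was 1 across states, 1 in IBA/SA, 1 in SA/SpD, and 1 between hibernation and active states. Clcn5 in SA/SpD turned from 0.33 to -0.0589 with K113 and K137 in and K130 out. The mean of Clcn5 in SA fell from 13.28 to 13.08 with K137 in, and that in SpD rose from 12.98 to 13.09 with K130 out. Why K137 and K130 read low was not tested. Of the correlations past an adjusted p of 0.05 in the 29 animals, Lrp2 with Amn no longer passed in experiment 1 (r = 0.700) or without the 2 farthest animals (0.355), nor did Lrp2 with Dab2 in experiment 1 (0.640). Cubn with Amn did not pass in 28 animals (0.208), experiment 1 (0.509), experiment 2 (0.426), or without the 2 farthest animals (0.0497). Amn with Dab2 did not pass in 28 animals (0.363), experiment 1 (0.186), without the 2 farthest (0.315), or in 28 animals with state means taken off (0.419). Experiment 1 holds 9 animals.

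No paired analysis was possible because the animals' numbers are unique to each animal. Each state has 4 or 5 animals, the depth of the libraries is unknown, and rlog values shrink differences of low genes such as Ocrl.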
